A study of Homo sapiens with 2 samples.

Results

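Long interspersed elements (LINEs) are the repeats examined here, as sources of small RNA held by Argonaute. In a genome-wide list of stacks, each a run of overlapping reads on 1 strand, 747 of 502547 stacks were taken as LINE stacks. They lay outside the mitochondrial genome, held at least 5 reads and fewer than 0.9 edits per read, and carried a LINE item on their own strand. Stacks that also carried a SINE or LTR item (the short interspersed and the long-terminal-repeat elements), a miRNA precursor or a structural RNA class on that strand were left out. The number of reads, the edits and the annotation therefore chose the members, and these 3 measures are given as descriptions.

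The libraries counted here held small RNA from FLAG:AGO3 and FLAG:AGO2 expressing HEK293 T-Rex cells. This is a human embryonic kidney line that carries a repressor for inducible transgenes. There was 1 AGO3 library and 1 AGO2 library, and the labels name no treatment, induction or time. Both carried the tagged protein as a transgene, no untagged control was analysed here, and the 3′ adapter differed between them, so adapter and protein cannot be told apart. The AGO3 library held 3055417 and the AGO2 library 3485257 counts on miRNA precursors. The stack list pools libraries and held 68649476 reads. Of these, 52912796 lay over miRNA precursors, far more than the counts of these libraries. Which libraries it pools is not stated, so its reads may come largely from others. A stack cannot be split into AGO3 and AGO2, and stacks are not replicates. Shares of stacks or reads are given with exact (Clopper-Pearson) 95% intervals, which cover counting error only, and no test was made.

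LINEs are retrotransposons that copy themselves through an RNA intermediate with their own reverse transcriptase. L1 is the family that is still active in the human genome, through its youngest subfamily L1HS. The L1PA subfamilies are primate-specific and the L1M subfamilies are older. L2 and CR1, whose main human member is L3, are ancient families that no longer move, and several conserved miRNA hairpins lie in L2 copies. Argonaute proteins hold small RNAs that guide them to target RNAs, and most of those in human cells are miRNAs cut from hairpins by Drosha and Dicer.

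LINE annotation and miRNA precursors met in 40 stacks, which the choice of members left out although they held 1377672 of the 1701817 reads with a LINE item on their own strand, or 81%. Mature miRNAs of these precursors are shown because they are small RNAs of known sequence from stacks with a LINE item on their own strand, and because several of them resemble each other. Sequences are from RefSeq (GRCh38.p14), 5′ to 3′, with the seed, bases 2 to 8, in capitals.
miR-28-3p: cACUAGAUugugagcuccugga
miR-708-3p: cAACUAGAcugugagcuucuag
miR-374a-3p: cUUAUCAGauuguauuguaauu
miR-374b-3p: cUUAGCAGguuguauuaucauu
miR-421: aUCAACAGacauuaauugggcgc
miR-545-3p: uCAGCAAAcauuuauugugugc
miR-1271-5p: cUUGGCACcuagcaagcacuca
miR-582-5p: uUACAGUUguucaaccaguuacu

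In an alignment without gaps, miR-374a-3p and miR-374b-3p shared 18 of 22 bases. The same kind of alignment gave 17 of 21 bases for miR-28-3p and miR-708-3p, whose longest common run was ugugagcu. For miR-421 and miR-545-3p it gave 17 of 22 bases. Each alignment was the best of all offsets, and these pairs had the most identical bases of all pairs compared. The next pairs shared 15 bases, among them miR-545-3p and miR-545-5p of the same hairpin, with 15 of 22. All of the sequences shown except miR-1271-5p, from an L2b copy, and miR-582-5p, from an L3 copy, come from hairpins annotated as L2c. No pair among the 15 mature sequences looked up had the same seed. Those 15 held only miR-28-3p from mir-28 and only miR-374a-3p from mir-374a. Seeds of the other arms of these precursors were therefore not compared. The stacks chosen as LINE stacks are outside these precursors, and their own sequences were not analysed here.

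The 747 LINE stacks held 138435 reads, 0.202% (0.201 to 0.203) of all stack reads and 0.88% (0.875 to 0.884) of those outside miRNA precursors. The other steps of the choice removed 15507 stacks under 5 reads with 18728 reads, 491 stacks at or over the edit limit with 154349 reads, 302 with a SINE or LTR item and 26 with a structural RNA item. Of the reads with a LINE item on their own strand, 8.13% were left. The limit on reads fell among many shallow stacks, with 106 LINE stacks of 5 reads against 153 stacks of 4 reads just outside. At the limit on edits, the highest member lay in an L1PA15 copy at chr11:103706258-103706278 with 111 edits in 124 reads, 0.895 per read. The next members had 0.889 edits per read, and the 3 stacks just outside had 0.9.

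The LINE label goes against the data for most of the reads. The deepest stack, chr5:140098492-140098671 on the plus strand (build hg19), covered the vault RNA gene VTRNA1-2 together with an L1MD3 item and held 84758 reads. The third in depth, chr5:140105725-140105902 on the same strand, covered VTRNA1-3 and an L1MC3 item with 7374 reads. Vault RNAs are short RNA polymerase III transcripts found in the vault particle, a large cytoplasmic ribonucleoprotein, and each of these genes is 88 bases long in RefSeq, so the stacks of 180 and 178 bases ran past them. Together they held 92132 reads, 66.6% (66.3 to 66.8) of the LINE reads. Their edits per read were 0.142 for VTRNA1-2 and 0.145 for VTRNA1-3. A further L1MC3 stack, chr5:140105922-140105999, started 19 bases past the VTRNA1-3 stack and held 74 reads. The neighbouring gene VTRNA1-1, whose stack carried no LINE item and was no member, held 19598 reads over 117 bases at 0.134 edits per read. The rule left the vault RNA stacks in because their class is none of those it removed, so values over reads are given with and without them.

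Without the vault RNA stacks, 745 LINE stacks with 46303 reads remained, 0.0674% (0.0668 to 0.0681) of all stack reads. Most of those reads were short: 74.2% (73.8 to 74.6) lay in stacks of 19 to 25 bases, about the length that Argonaute holds. A single stack of 21 bases held 35.7% of those reads, so this share rests largely on few stacks. Counted by stacks, 57.3% of the 747 members were of that length. Edits over all reads came to 0.18 per read without the vault RNA stacks and 0.155 with them.

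Among the remaining stacks, a single L1PA7 copy on chromosome 12 stood first. It lay at chr12:84504248-84504268 on the plus strand, outside annotated genes, spanned 21 bases and held 16526 reads at 0.16 edits per read. This was 11.9% of the LINE reads, or 35.7% (35.3 to 36.1) once the vault RNA stacks were set aside. Another L1PA7 copy, chr18:51167662-51167688, held 1274 reads over 27 bases but had 0.863 edits per read, close to the limit. All 4 L1PA7 stacks together held 17815 reads. Each stack has a mapping label in the list, which is not defined there. It was UNIQ40_K0, the label of 371 members with 130452 reads, in both of these L1PA7 stacks and in 9 of the 10 deepest members. The other labels were UNIQ10_K0 in 320 members with 6960 reads, or 42.8% (39.3 to 46.5), and UNIQ40_K1 in 56 members with 1023 reads. UNIQ10_K0 was carried by 28% (25.5 to 30.7) of SINE stacks, 32.4% (28.1 to 37) of LTR stacks and 11.3% (11 to 11.6) of stacks with no repeat item. Whether reads that match several copies were dropped or placed on 1 of them was not tested.

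L2 copies supplied the next 3 in depth. An L2a copy on the minus strand of chr6:123161354-123161377, outside genes, held 4398 reads in 24 bases at 0.0787 edits per read. An L2 copy in an intron of PKD1, the gene of polycystin 1, held 1942 reads at chr16:2145805-2145888, where the stack was 84 bases long. An L2a copy in an intron of FAT3, which encodes a protocadherin, held 1568 reads in 28 bases at chr11:92379080-92379107. Their edits per read were 0.137 in PKD1 and 0.168 in FAT3.

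L1M copies completed the 10 deepest stacks. An L1ME4a copy in an intron of ENOX1 held 1097 reads at chr13:44205032-44205057 with 0.168 edits per read. L1MA4A copies outside genes held 1017 reads at chr9:31763915-31763939 and 940 reads at chr5:71212507-71212529. They differed in edits, with 0.475 per read on chromosome 9 and 0.0383 per read on chromosome 5. All 3 stacks were between 23 and 26 bases long.

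**Figure D1:**
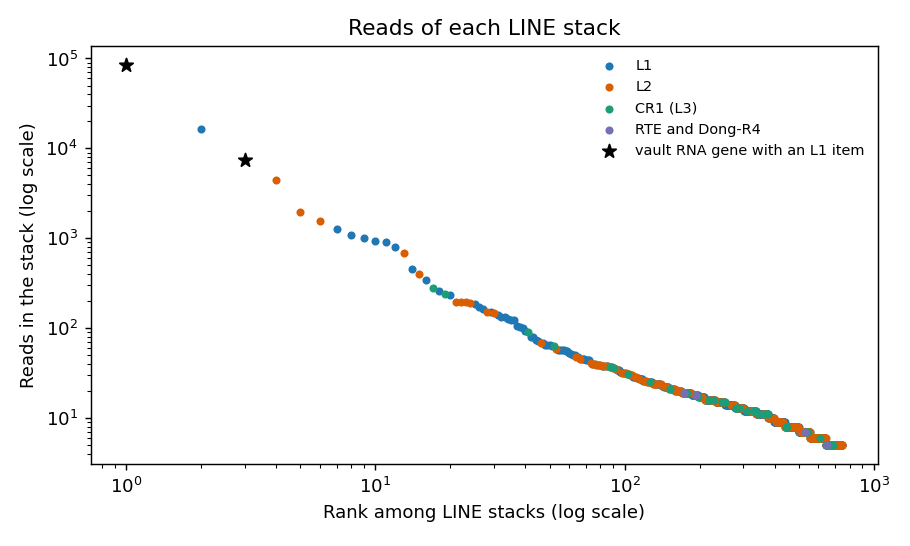
Reads of each of the 747 LINE stacks (vertical axis, log scale) by rank (horizontal axis, log scale), with 1 point per stack, coloured by LINE family; stars are the stacks over vault RNA genes. The stars stand at 84758 and 7374 reads, and most points lie under 20 reads.

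The depth was very uneven. The 10 deepest stacks held 87.3% (87.2 to 87.5) of the LINE reads, and 65.8% (65.4 to 66.3) when the vault RNA stacks were left out. The 10 deepest SINE stacks, chosen by the same limits from 1206, held 40.5% of theirs, and the 10 deepest of 450 LTR stacks held 68%. In contrast, the median LINE stack held 11 reads (interval 9 to 11), with quartiles at 6 and 18, and 578 stacks, 77.4%, held fewer than 20 reads. Only 39 stacks reached 100 reads, and these held 128341 of the reads. Without the vault RNA stacks they were 37 stacks with 36209 reads. Chromosome 1 had the most members, 77, followed by chromosome 11 with 56 and chromosome 2 with 51. One member lay on the Y chromosome, an L1PA16 copy with 107 reads at chrY:14734863-14734879 and the label UNIQ10_K0, although HEK293 cells are known to carry no Y chromosome.

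L1 and L2 made up nearly all LINE stacks. L1 gave 489 stacks, 65.5% (61.9 to 68.9), L2 gave 220, 29.5% (26.2 to 32.9), CR1 gave 34, 4.55% (3.17 to 6.3), and RTE gave 3. The remaining stack was a Mam_R4 copy in an intron of AAK1 with 18 reads. By reads the makeup was 89.8% L1 and 9.36% L2 with the vault RNA stacks, and 69.5% L1 and 28% L2 without them. The 8926 LINE stacks of a single read are set beside them: 61.6% (60.6 to 62.6) were L1, 33.3% (32.3 to 34.3) L2 and 3.99% CR1. Such stacks passed the edit limit only with 0 edits, so they are not chosen alike in that respect.

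Within L1, the older L1M subfamilies gave 380 stacks, 50.9% (47.2 to 54.5) of the members, against 50.3% (49.2 to 51.3) of the single-read stacks. L1HS and L1PA together gave 66 stacks, 8.84% (6.9 to 11.1), against 5.84% (5.36 to 6.34). All 66 belonged to L1PA. L1HS, the active subfamily, had 0 of 747 stacks (0% to 0.493%), and 6 of the 8926 single-read stacks. The latter share, 0.0672% (0.0247 to 0.146), lies within the interval of the members, so the 0 does not set them apart. These counts also depend on how reads that match several copies were placed, which was not tested. The closest relatives of L1HS were few in both sets. Members were 1 L1PA2 stack of 6 reads, 1 L1PA3 stack of 5 reads and 2 L1PA4 stacks with 16 reads in all. These were 0.134%, 0.134% and 0.268% of the members, against 0.146%, 0.168% and 0.314% of the single-read stacks. Of the L1PA stacks, 33 of 66 had the label UNIQ10_K0.

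CR1 stacks had a median of 13 reads, against 10 in L1 and in L2, while the other less frequent groups had no stack past 57 reads. The deepest L1PB stacks held 57 reads in an L1PB1 copy at chr2:78286259-78286282 and 51 reads in an L1PB4 copy at chr1:228011134-228011154. HAL1, an L1 relative that lacks the second open reading frame, had its deepest stack at chr18:23747812-23747878 with 18 reads, followed by an exon of ZNF620 with 16 reads at chr3:40559178-40559205. Among L1 copies outside these groups, an L1P3 copy at chr5:165122324-165122350 held 14 reads and an L1P2 copy in an intron of MTMR8 held 13 reads at chrX:63496202-63496224. For RTE the deepest were L4 copies, with 19 reads at chr11:9873096-9873115 and 7 reads in an exon of DBNDD2 at chr20:44039212-44039246. CR1 reached 281 reads in an L3 copy at chr15:76486413-76486473 and 239 reads in an L3 copy in an intron of SS18L1 at chr20:60749820-60749847.

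**Figure D2:**
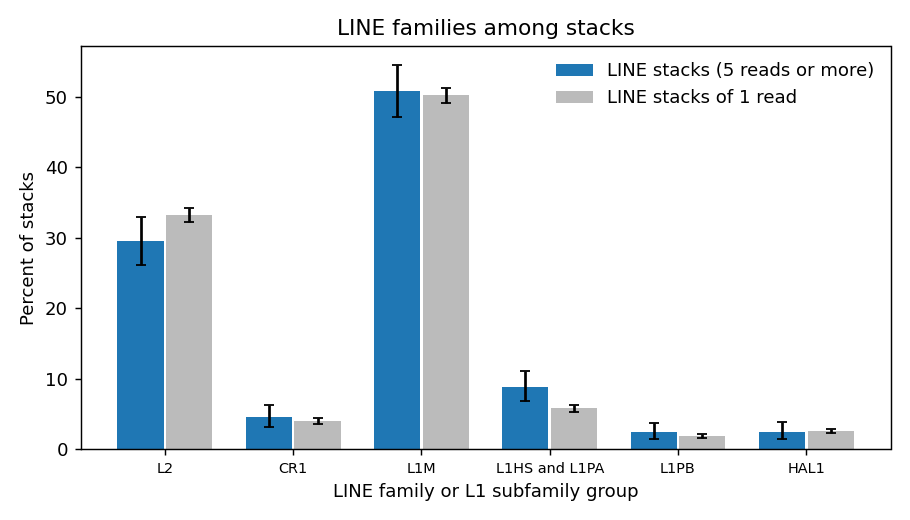
Percent of stacks (vertical axis) in each LINE family or L1 subfamily group (horizontal axis) for the 747 LINE stacks of 5 reads or more and the 8926 LINE stacks of 1 read; bars start at 0 and error bars are exact 95% intervals over stacks. L1M stands near 50% in both sets, and L1HS with L1PA stands at 8.84% against 5.84%.

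Lengths of LINE stacks centred on 22 to 23 bases. Whether these lengths reflect binding by Argonaute was not tested. LINE stacks ran over 15 to 180 bases with a median of 23 (22 to 23), and 22 bases was the most frequent length, with 88 stacks. Of the members, 428 or 57.3% (53.7 to 60.9) were 19 to 25 bases long, against 57% (54.2 to 59.9) of SINE stacks, 52% (47.3 to 56.7) of LTR stacks and 38.7% (38.2 to 39.3) of the 34417 stacks with no repeat item. Stacks with no repeat item were exonic in 46.3%, against 10.4% of LINE stacks. Their median lengths were 24 bases in introns, 25 opposite a gene and 25 outside genes. The single-read LINE stacks were 19 to 25 bases long in 78.7% (77.9 to 79.6). Stacks under 19 bases made up 13.5% (11.1 to 16.2) of LINE stacks, 3.23% (2.31 to 4.39) of SINE stacks and 11.6% (8.75 to 14.9) of LTR stacks. Of the single-read LINE stacks, 13.7% (13 to 14.5) were that short. Over 40 bases were 76 LINE stacks, 10.2% (8.1 to 12.6), with 9.95% of SINE, 14.4% of LTR and 28.8% of stacks with no repeat item. A stack merges overlapping reads, so its length is at least that of its reads.

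**Figure D3:**
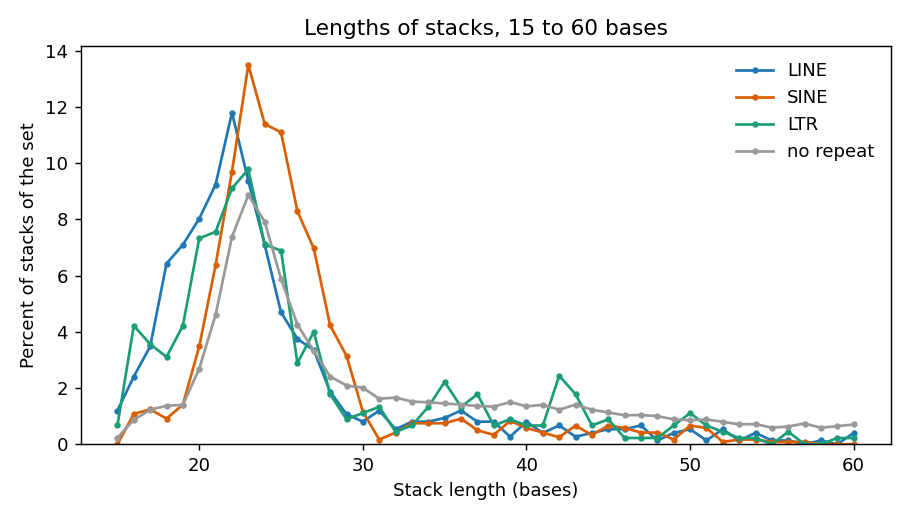
Percent of stacks (vertical axis) at each stack length in bases (horizontal axis, 15 to 60 bases) for LINE, SINE, LTR and stacks with no repeat item, 1 line per set. The LINE line peaks at 22 bases with 11.8%, and it lies above the SINE line under 19 bases.

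Edits, a count the list gives for each stack without defining it, came close to the limit of the choice but were mostly low. Below 0.1 edits per read stood 40.2% of LINE, 40.2% of SINE and 37.3% of LTR stacks. From 0.8 to 0.9 stood 4.55% of LINE, 1.49% of SINE and 4.22% of LTR stacks. The median was 0.137 edits per read (0.125 to 0.148) in LINE stacks, 0.133 (0.125 to 0.143) in SINE stacks and 0.143 (0.125 to 0.154) in LTR stacks. In LINE stacks 206, or 27.6%, had no edit. At 0.5 edits per read or more stood 89 LINE stacks, 11.9% (9.68 to 14.5), which held 3044 reads. Such stacks made up 15 of 66 in L1PA, 22.7% (13.3 to 34.7), 44 of 380 in L1M, 11.6% (8.54 to 15.2), and 22 of 220 in L2, 10% (6.37 to 14.7). By place they made up 2 of 78 in exons and 45 of 283 outside genes, 15.9% (11.8 to 20.7). LINE stacks over miRNA precursors had 0.155 edits per read over all reads.

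LINE stacks lay mostly outside exons. Relative to annotated genes, 283 stacks, 37.9% (34.4 to 41.5), were outside genes, 202, 27% (23.9 to 30.4), in introns on the gene's strand, 184, 24.6% (21.6 to 27.9), on the strand opposite a gene, and 78, 10.4% (8.34 to 12.9), in exons. SINE stacks were in introns in 39.7% and outside genes in 31.9%, and LTR stacks in introns in 17.3% and outside genes in 51.8%. LINE stacks of 1 read were in introns in 49.8%, and those of 2 to 4 reads in 26.4%. By family, L1 was outside genes in 44% (39.5 to 48.5) of its stacks, L2 in introns in 34.1% (27.9 to 40.8) and in exons in 15% (10.6 to 20.4), and CR1 in introns in 47.1% (29.8 to 64.9).

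**Figure D4:**
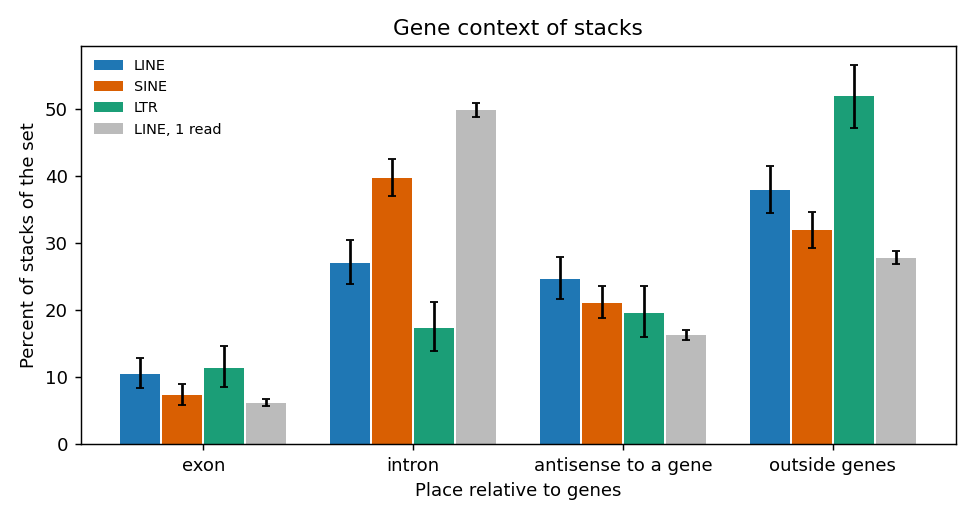
Percent of stacks (vertical axis) by place relative to genes (horizontal axis) for LINE, SINE and LTR stacks of 5 reads or more and LINE stacks of 1 read; bars start at 0 and error bars are exact 95% intervals over stacks. LINE stacks stand at 27% in introns, between LTR and SINE, and the single-read LINE stacks at 49.8%.

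Exonic stacks were longer and were mostly in 3′ untranslated regions. Of the 78, 61 carried a 3′ UTR item and 3 a 5′ UTR item. Their median length was 40 bases, against 23 in introns, 21.5 opposite a gene and 22 outside genes. Of the 76 LINE stacks over 40 bases, 37 were exonic, and 11 exonic stacks were 19 to 25 bases long. Exonic stacks with no repeat item had a median of 37 bases. Without the vault RNA stacks, exons held 888 reads, 1.92% (1.79 to 2.05) of the LINE reads left. The deepest exonic stack after the vault RNAs lay over an L1M4c copy in MALAT1, an abundant nuclear noncoding RNA, with 40 reads over 167 bases at chr11:65266940-65267106.

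Some LINE stacks had a second stack close by on the same strand, as the arms of a miRNA hairpin can have around its loop. The choice of this measure was made after values were seen: stacks of 19 to 28 bases whose neighbour was also of 19 to 28 bases, held at least 5 reads and lay 5 to 25 bases away. In such a pair stood 31 LINE stacks, 4.15% (2.84 to 5.84), against 5.06% (3.89 to 6.45) of SINE stacks, 1.78% (0.771 to 3.47) of LTR stacks and 6.27% (6.02 to 6.53) of stacks with no repeat item. Of the 1438 stacks of at least 5 reads over miRNA precursors, 38.7% (36.1 to 41.2) did. Of the 31 LINE stacks, 23 were intronic, which is 11.4% (7.36 to 16.6) of intronic LINE stacks, while 0 of 78 exonic ones (0% to 4.62%) were paired. The median exonic stack, of 40 bases, was longer than the 28 bases a pair allowed, so this 0 was largely set by length. All these shares are over every stack of a set, whether or not its length allowed a pair. Shares by place were counted only for LINE stacks, so the intronic share has no counterpart in the other sets. By family the 31 were 17 of 489 L1 stacks, 6 of 220 L2 stacks and 8 of 34 CR1 stacks, 23.5% (10.7 to 41.2). Where both stacks of a pair were members, both were counted, so the 31 stood at fewer places. Among CR1 this was so in SS18L1, ATXN7L1 and LRSAM1. The intervals make no allowance for it.

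The FAT3 stack had the deepest member of these pairs, with a second stack of 178 reads 9 bases away at chr11:92379117-92379143. In SS18L1 the L3 stack of 239 reads had a partner of 63 reads at chr20:60749772-60749794, 25 bases away. In an intron of MOV10, which encodes an RNA helicase known to restrain L1 movement, an L2b copy held 153 reads at chr1:113230669-113230692 and 39 reads at chr1:113230702-113230723. Shallower pairs varied in balance. An L1MEc copy in an intron of RALGPS2 held 19 and 18 reads 11 bases apart, and an L1MEc copy in an intron of TBC1D22A held 13 and 12 reads 11 bases apart. L3 copies in introns of ATXN7L1 and LRSAM1 had 16 and 12 reads, and 15 and 12 reads. Less balanced were an L3 copy opposite PIK3R2, with 36 reads beside 5, and an L2c copy in an intron of ERCC6L2, with 24 beside 9.

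By strand, LINE copies gave similar numbers of stacks but not of reads. Because the choice required the LINE item on the stack's own strand, stacks on the opposite strand of a LINE were counted for comparison. The limits on reads, edits, miRNA precursors and structural RNA were the same. In the opposite set, a SINE or LTR item on either strand removed a stack, as did a LINE item on its own strand. Members were removed only for SINE or LTR items on their own strand, so the sets were not chosen fully alike. There were 747 on the LINE's strand and 751 opposite it, so that 49.9% (47.3 to 52.4) of the 1498 were on the LINE's strand. By reads there were 138435 on the LINE's strand and 82514 opposite it, of which 56513 lay in the deepest opposite stack. Without the vault RNA stacks 46303 remained on the LINE's strand, so the order of the reads turns on a few deep stacks of either strand. The opposite set was in introns in 41.5% (38 to 45.2) and opposite a gene in 11.1% (8.9 to 13.5), where the members stood at 27% and 24.6%. The deepest on the LINE's strand was the VTRNA1-2 stack. The deepest opposite it lay at chr19:43965015-43965047, opposite an L2c copy, with 56513 reads over 33 bases and 0.206 edits per read.

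Overlapping stacks on both strands of 1 place were uncommon. With an overlap of at least 10 bases, 32 LINE stacks, 4.28% (2.95 to 5.99), had a partner on the other strand, against 2.49% (1.68 to 3.53) of SINE stacks, 3.78% (2.22 to 5.98) of LTR stacks and 8% (7.72 to 8.3) of stacks with no repeat item. Single-read LINE stacks had one in 0.549%. The deepest was an L1M4 copy at chr3:48357870-48357895 with 172 reads, which lay opposite MIR2115 and SPINK8 and had a partner of 11 reads overlapping by 23 bases. It was also in a same-strand pair, with 19 reads 14 bases away at chr3:48357910-48357934. The next were an L2a copy at chr1:226296887-226296910 with 39 reads against 2, and an L1M5 copy in an intron of RIPK1, a kinase of cell death signalling, at chr6:3094366-3094459 with 34 reads against 1.

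AGO3 and AGO2 could be compared only through the miRNA precursors whose stacks carry a LINE item, since only precursors were counted by library. Of these 31 precursors, 18 lay in L2, 12 in L1 and 1 in CR1. By stack reads L2 held 97.8%, CR1 1.97% and L1 0.181%, that is 2492 reads. They took 3.58% of the AGO3 counts and 4.66% of the AGO2 counts. Among the 13 with at least 100 counts over both libraries, 6 had a higher share in AGO3 and 7 a lower one. At least 2-fold apart were 2 of the 13, 1 in each direction, where 24.6% of the 411 precursors with that many counts were (15.8% higher and 8.76% lower in AGO3). The median log2 ratio of AGO3 over AGO2 was −0.09, against 0.0846 over all 411. With 1 library per protein there is no replicate check and no test.

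The precursors apart were mir-1271 and mir-374a. For mir-1271, in an L2b copy at chr5:175794961-175794993, the counts were 4704 in AGO3 and 1505 in AGO2, a log2 ratio of shares of 1.83 (1.75 to 1.92). For mir-374a, in an L2c copy at chrX:73507128-73507186, they were 33331 in AGO3 and 77379 in AGO2, a log2 ratio of −1.03 (−1.04 to −1.01), just past 2-fold. Its relative mir-374b, an L2c copy on the same chromosome whose count may hold reads of mir-374c on the opposite strand, had 10892 counts in AGO3 and 15022 in AGO2, a log2 ratio of −0.27 (−0.31 to −0.24).

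Among the other named precursors, mir-28 and mir-708 had a pair of similar mature sequences, as did mir-421 and mir-545. Counts were per precursor, so the ratios are not those of the sequences compared. For mir-28 the counts were 4812 in AGO3 and 3749 in AGO2, a log2 ratio of 0.55 (0.49 to 0.61), and for mir-708 they were 2651 in AGO3 and 2665 in AGO2, a log2 ratio of 0.18 (0.10 to 0.26). For mir-545 they were 2966 in AGO3 and 2523 in AGO2, a log2 ratio of 0.42 (0.35 to 0.50). For mir-95 they were 726 in AGO3 and 1201 in AGO2, a log2 ratio of −0.54 (−0.67 to −0.40), but its stack with the LINE item held only 54 reads, beside 7457 in another mir-95 stack at chr4:8007037-8007064 that had its LINE item on the opposite strand. The precursor mir-421 had 4854 counts in AGO3 and 5071 in AGO2, a log2 ratio of 0.13 (0.07 to 0.18) that turned to −0.03 when the libraries were scaled by TMM. That scaling moved the log2 ratio of every precursor, and so their median, by −0.16. The deepest of the others were mir-151a, in an L2c copy on chromosome 8, with 42126 counts in AGO3 and 51140 in AGO2, and mir-582, in an L3 copy, with 1592 in AGO3 and 1428 in AGO2. Their log2 ratios were −0.09 (−0.11 to −0.07) for mir-151a and 0.35 (0.24 to 0.45) for mir-582.

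**Figure D5:**
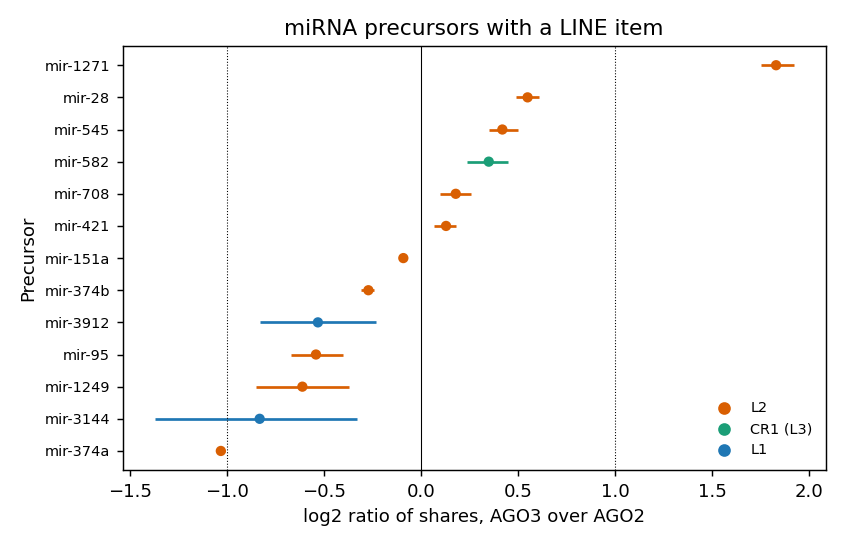
Log2 ratio of AGO3 over AGO2 shares of precursor counts (horizontal axis) for the 13 precursors with a LINE item and at least 100 counts (rows), coloured by family; lines are exact 95% counting intervals and dotted lines mark 2-fold. Points past a dotted line are mir-1271 at 1.83 and mir-374a at −1.03, with 1 library per protein.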

How the data were processed

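Small RNA bound to FLAG-tagged AGO3 or AGO2 was sequenced in 1 library each. The authors deposited 1 table of raw counts for each library, with miRNA precursors as entries, and a list of read stacks with counts of reads, edits, annotation and an entropy score, deposited with libraries pooled; the score was not used here. Bowtie2 2.1.0 and build hg19 are named, without their role, in the submitters' processing notes. Which libraries were pooled is not stated in those notes, the labels or the files. The list gives each stack a mapping label (UNIQ40 or UNIQ10 in the members) without defining it.

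LINE stacks were chosen with the limits given in the report, and SINE, LTR, single-read and no-repeat stacks with the same annotation fields. Context was assigned in the order exon, intron, opposite strand of a gene, outside genes. Log2 ratios compared each precursor's share of its library's counts, after adding a pseudocount of 0.5. Intervals cover counting error only, because reads were counted, not molecules; the short random barcode of the 5′ adapter was not used here. The procedures were tested on simulated data. The members and lists were chosen with earlier results of these data known. Stacks named are the 10 deepest, the 2 deepest of each family and L1 group, the deepest on each strand, the 3 deepest with a partner, the 3 deepest in exons and those beside the limits; precursors named are the 10 with the most counts. Same-strand pairs and zinc finger genes, and further stacks and genes named for depth or vault RNA, were chosen after values were seen. Alternatives changed the limits, the overlap, the pseudocount, the scaling and the deepest stacks. TMM factors came from edgeR 4.0.16 under R 4.3.3, exact intervals from scipy 1.17.1 and figures from matplotlib 3.10.9. Tables were handled with pandas 2.3.3 and numpy 2.4.6 in Python 3.11.15.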

Additional observations from a re-analysis of the deposited data

How the results depend on the processing

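The number of LINE stacks was 398 with a minimum of 10 reads. The share of reads in the 10 deepest stacks was 88.8% with that minimum, 89% with a limit of 0.5 edits per read, 87% with SINE and LTR items kept, 69% without the deepest stack and 65.8% without the vault RNA stacks, an alternative chosen after seeing the data. The limit of 0.5 gave a median of 0.118 edits per read, which follows from its construction. With 10 reads, the SINE share at 19 to 25 bases was 54.1%. In 33 other recomputed values the result moved by less than its interval or, for counts, by under 1.5 times. TMM scaling moved the 10 named precursor ratios by −0.16 and left 2 LINE precursors apart, as did a pseudocount of 1. No paired analysis was possible because there was 1 library per protein and the stack list pools libraries. Depth limits what the shallow stacks show: 578 of 747 held fewer than 20 reads.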

Other observations

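Zinc finger genes, whose products include many repressors of retrotransposons, were counted among the hosts of exonic LINE stacks, a group chosen after its values were seen. Of the 78 exonic stacks, 13 lay in genes named ZNF, 16.7% (9.18 to 26.8), in 12 genes. The share was 10.5% (8.09 to 13.4) of the 551 exonic LINE stacks of a single read and 2.99% of the 16908 exonic stacks of all kinds past the same limits. The single-read share lies within the interval of the members. Stacks in ZNF850 lay 1 base apart, for which the interval makes no allowance. A link to the repression of retrotransposons was not tested. Among the 12 genes were ZNF133, ZNF268, ZNF331 and ZNF620.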
